A study of Mus musculus with 15 samples.

Results

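Hearts of 12-week-old C57BL6 male mice given isoproterenol under the skin at 50 mg/kg/day for 11 days were compared with hearts of mice given saline. The saline mice were also 12-week-old C57BL6 males. The 8 libraries were chosen by their treatment labels, 4 after 11 days of isoproterenol (A to D) and 4 after saline (A to D), out of 15 in the series. The other 7, from hearts after 4 days (4 libraries) and 8 days (3 libraries) of the same dose, entered direct comparisons with 11 days. No genetic change is named for any group, and the saline mice were dosed for a period described only as similar, so a single saline group is the reference for each duration. Each library was made from total RNA of a small snap-frozen piece of heart, which the study calls ventricular. Nothing in the labels says that the libraries of a group came from separate animals, so a p-value here measures the spread between these libraries.

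Isoproterenol is a synthetic catecholamine that activates the β-adrenergic receptors of heart muscle cells. The receptors couple through Gs to adenylyl cyclases, and the cyclic AMP they make activates protein kinase A, which phosphorylates L-type calcium channels, the ryanodine receptor and phospholamban so that each beat is faster and stronger. Receptor kinases (GRKs) and arrestins shut the receptor off, phosphodiesterases break cyclic AMP down, and weeks of stimulation are a standard way to produce enlargement and fibrosis of the heart in mice.

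Each library held 28889500 to 117777005 estimated gene counts, of which 49.1% to 58.4% fell on mitochondrial genes. Heart muscle dominated every library: the 21 cardiomyocyte markers summed to 77491.2 to 86689.0 CPM (counts-per-million units) in saline and 80743.8 to 87712.5 after 11 days. Markers of atrial muscle summed to 135.4 to 237.2 CPM and 211.0 to 325.9 CPM in the same groups. In bulk tissue, fewer cells of a type and less RNA per cell cannot be told apart, and this holds for each cell type marker below.

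Of 26862 genes tested, 483 (1.8%) were higher and 523 (1.95%) lower after 11 days than in saline by edgeR's quasi-likelihood test at a Benjamini-Hochberg adjusted p under 0.05. At least 2-fold changes were found in 97 of the higher and 122 of the lower genes, and the median log2 fold change over all genes was -0.01. The 11-day libraries lay all above the saline libraries in 5.53% of genes and all below in 5.01%, and 953 of the 1006 called genes were among these. Scaling by total counts alone, without TMM normalization, moved the median to 0.06 and the split to 415 higher and 220 lower. The counts also moved with single libraries: the number of higher genes lay between 231 (without 11-day A) and 319 (without saline A) when saline A or C or any single 11-day library was left out, and that of lower genes between 267 (without 11-day B) and 296 (without 11-day A) without 11-day A, B or C. Without saline B, 675 were higher and 747 lower. A total of 392 genes (175 higher, 217 lower) passed in each of the 8 fits that left out 1 library, and such genes are called held below. Protein-coding genes made up 903 of the 1006 calls. The plot of gene lists shows where the calls fell. Counts within each list below stand against 1.8% of all genes higher and 1.95% lower. Of 16797 protein-coding genes tested, 448 were higher and 455 lower, 5.38% called either way. The lists were chosen with earlier results of these data known, so a share above these is not a test of a list.

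**Figure D1:**
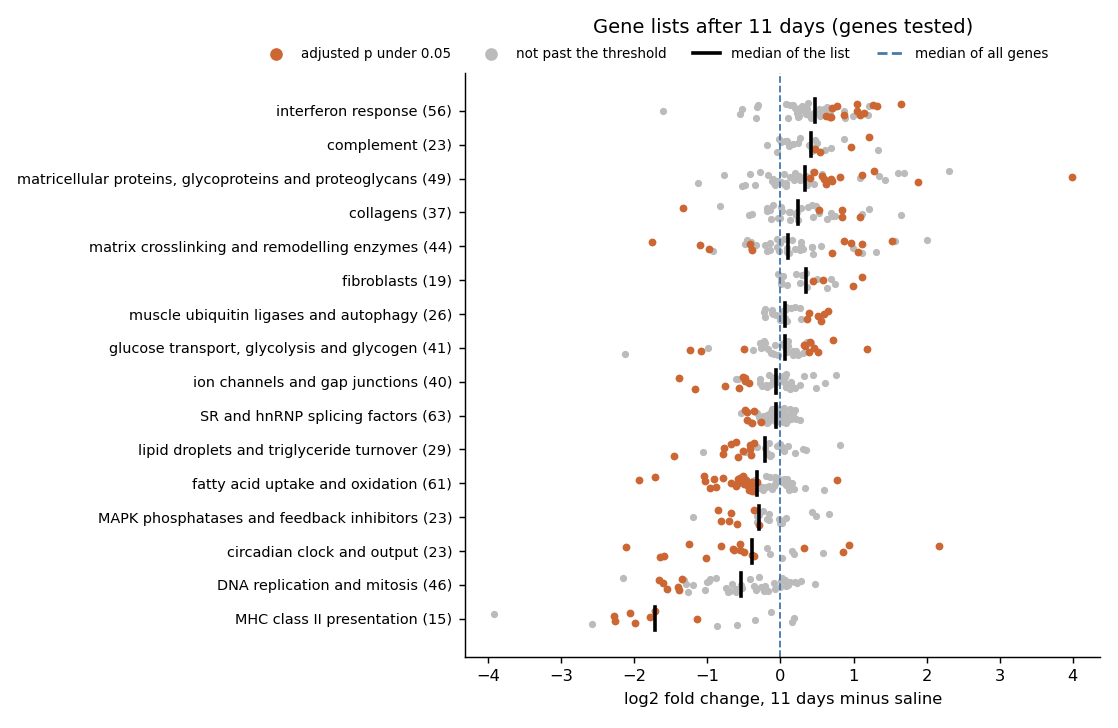
Log2 fold change (11 days minus saline) of every tested member of 16 gene lists, one point per gene, with the number tested in parentheses, the median of each list as a black bar and the median of all genes (-0.01) as a dashed line. Members past the threshold (orange) lay to the left in MHC class II presentation and DNA replication, and to the right in the interferon response. In fatty acid uptake and oxidation they lay to the left apart from 1 (Acsl3), while the clock list held calls on both sides.

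Within the adrenergic pathway, the main β-receptor of heart muscle did not pass the test, α1-receptors fell and 2 receptor kinases rose. Transcripts of that receptor, Adrb1, stood at 6.06, 6.15, 7.68 and 6.04 CPM in saline libraries A to D and at 4.97, 5.04, 4.86 and 6.49 CPM after 11 days (log2 fold change -0.28 ± 0.12, adjusted p = 0.239), and the groups overlapped. Adra1a, the α1A-receptor, stood at 18.02, 17.6, 23.1 and 23.7 CPM in saline and at 14.5, 15.6, 14.1 and 13.6 CPM after 11 days, and every treated library lay below every saline library. It fell by 0.52 in log2 units (SE 0.10, adjusted p = 0.0138), a call that held. Adra1b, the α1B-receptor, fell from 5.71–10.3 to 4.31–6.34 CPM (adjusted p = 0.0436), with overlapping groups and an adjusted p of 0.054 to 0.145 without 1 of saline A, C, D, 11-day A, B, C. The range covers the fits in which each of these libraries was left out in turn, here and below.

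Grk5, a kinase that phosphorylates activated receptors, rose from 16.3, 18.01, 20.3 and 17.9 CPM to 24.3, 20.4, 22.5 and 25.4 CPM (log2 fold change 0.35 ± 0.09, adjusted p = 0.0428). Grk3, another kinase of this family, rose from 6.58, 7.96, 7.92 and 6.33 CPM to 10.5, 9.501, 9.26 and 10.2 CPM (log2 fold change 0.45 ± 0.10, adjusted p = 0.019). In both genes the groups did not overlap, but the adjusted p was 0.0532 to 0.129 without 1 of saline A, B, D, 11-day A, C, D for Grk5 and 0.0537 to 0.0659 without 1 of saline A, 11-day A, D for Grk3. Grk2, the most studied of these kinases in the heart, stood at 19.2–22.8 CPM in saline and 18.5–22.02 CPM after 11 days (adjusted p = 0.775). Of the 26 genes of receptors, G proteins, kinases and arrestins, 2 were higher and 2 lower, where 1.8% of all genes were higher and 1.95% lower. The median log2 fold change was -0.05, and scaling by total counts alone left 0 higher and 1 lower. The higher count was 0 without 1 of saline A, 11-day A, D and 1 without 1 of saline B, D, 11-day C, and the lower count was 1 without 1 of saline A, C, D, 11-day A, B, C.

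Downstream, the genes for cyclic AMP turnover moved in both directions. Adcy1, a calcium-stimulated adenylyl cyclase, stood at 2.74, 4.66, 2.56 and 1.96 CPM in saline and 0.719, 0.731, 0.866 and 1.098 CPM after 11 days. Its highest treated library lay well under its lowest saline library, and it fell by 1.77 in log2 units (SE 0.24, adjusted p = 0.00136), a call that held. Adcy6, a main cyclase of heart muscle, rose from 111–134 to 134–184 CPM (log2 fold change 0.40 ± 0.10, adjusted p = 0.0437), with an adjusted p of 0.0513 to 0.144 without 1 of saline A, B, C, 11-day A, C, D, and Adcy5, the other main one, did not pass (log2 fold change 0.09, adjusted p = 0.694).

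The phosphodiesterases called were all higher. Pde1c, which breaks down cyclic AMP and cyclic GMP, rose from 53.9, 48.8, 53.2 and 57.97 CPM to 69.6, 63.7, 78.99 and 68.2 CPM (log2 fold change 0.39 ± 0.08, adjusted p = 0.0179). Pde5a, specific for cyclic GMP, rose from 3.56–4.17 to 4.46–5.52 CPM (adjusted p = 0.0327). Pde7a, specific for cyclic AMP, rose from 22.8–27.8 to 31.1–41.8 CPM (adjusted p = 0.0203). None of these calls held: the adjusted p was 0.0508 to 0.064 without 1 of 11-day A, C for Pde1c, 0.0738 to 0.102 without 1 of saline A, C, 11-day B, C, D for Pde5a, and 0.0588 to 0.0632 without 1 of saline A, 11-day A, B for Pde7a. Pde4b, whose product is a major cyclic AMP phosphodiesterase, did not pass (log2 fold change -0.13, adjusted p = 0.485). Akap6, which anchors protein kinase A at the nuclear envelope and sarcoplasmic reticulum, fell from 265, 249, 245 and 264 CPM to 181, 190.1, 198 and 202 CPM (log2 fold change -0.41 ± 0.07, adjusted p = 0.00596), and held. Popdc2, a cyclic AMP binding membrane protein, fell from 142–165 to 106–127 CPM (adjusted p = 0.012), with an adjusted p of 0.0525 to 0.0623 without 1 of 11-day B, C. Over the 46 genes of this list, 4 were higher and 3 lower (median 0.04). Scaling by total counts alone gave 4 higher and 1 lower, effective lengths 2 higher, and leaving out saline B 5 lower. The higher count was 1 without 1 of 11-day A, C and 2 without 1 of saline A, C, 11-day B, D.

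**Figure D2:**
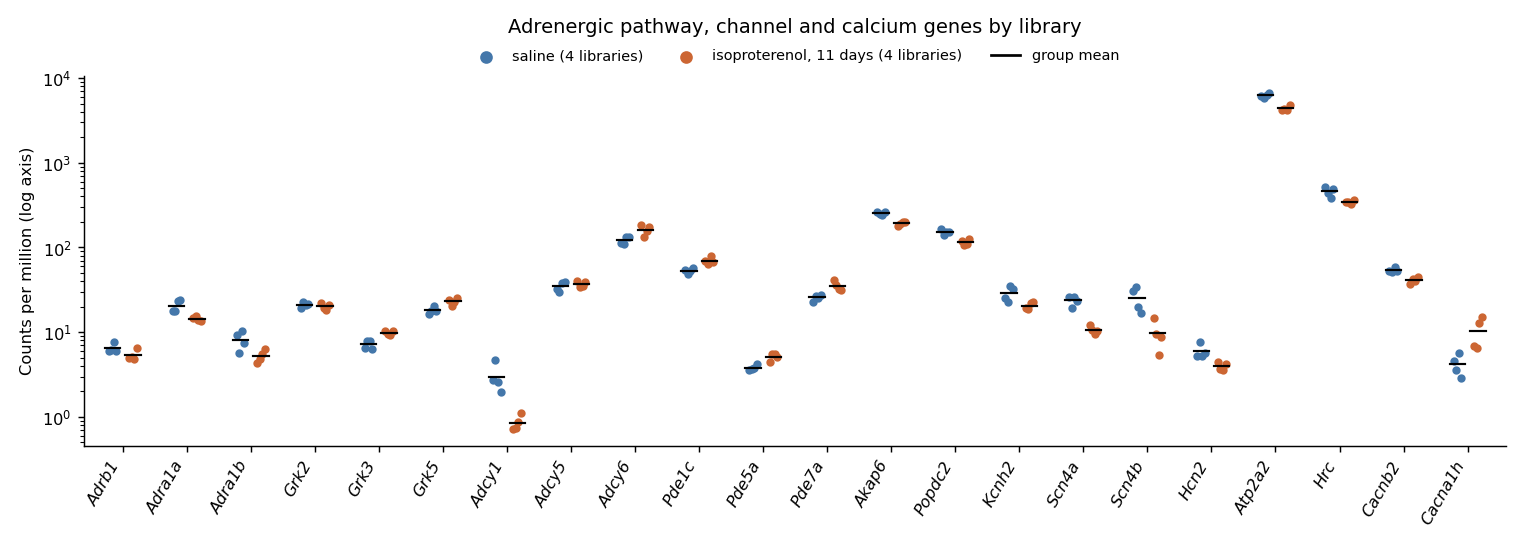
CPM on a log axis of 22 genes of adrenergic signalling, ion channels and calcium cycling in the 4 saline (blue) and 4 11-day (orange) libraries, with group means as black bars. The means of Adcy1, Scn4b and Scn4a differ most downward and that of Cacna1h most upward, while Adrb1, Grk2 and Adcy5 overlap.

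Of 40 ion channels 8 fell and 0 rose (2 without saline B), and the median log2 fold change was -0.06. Scaling by total counts alone left 4 lower and turned the median to 0.03, and the lower count was 4 without 11-day C and 5 without 1 of 11-day A, B, D. Scn4b, an auxiliary subunit of sodium channels, stood at 30.4, 33.7, 20.04 and 16.99 CPM in saline and 14.9, 9.64, 5.32 and 8.79 CPM after 11 days. Scn4a, the sodium channel best known from skeletal muscle, stood at 26.4, 19.3, 25.8 and 23.5 CPM and 12.1, 10.6, 9.44 and 10.4 CPM. Both separated the groups completely and held, with log2 fold changes of -1.39 ± 0.26 for Scn4b (adjusted p = 0.00979) and -1.16 ± 0.11 for Scn4a (adjusted p = 7.66e-05). Kcnh2, which carries the rapid delayed rectifier current, Hcn2, a pacemaker channel, Clcn1, a chloride channel, and Kcnv2, a silent potassium channel subunit, were also lower, with adjusted p-values of 0.0435, 0.0293, 0.0153 and 0.0384. None of these 4 held, and the adjusted p was 0.0505 to 0.143 without 1 of saline A, C, D, 11-day A, B, C, D for Kcnh2, 0.0559 to 0.0906 without 1 of 11-day B, C, D for Hcn2, 0.0512 to 0.0552 without 1 of 11-day A, C for Clcn1 and 0.0785 to 0.113 without 1 of saline A, C, D, 11-day A, B, C, D for Kcnv2. Gja1, the main ventricular connexin, did not pass (adjusted p = 0.924).

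Among 39 calcium cycling genes, 5 were lower and 1 higher (median -0.09), where 1.95% of all genes were lower and 1.8% higher. With total counts alone as the scale, edgeR left 1 lower, and the lower count was 2 without 1 of saline A, 11-day A, B, C and 3 without 11-day D. Atp2a2, the calcium pump of the sarcoplasmic reticulum, fell from 6193, 5854, 6254 and 6613 CPM to 4149, 4359.5, 4159 and 4861 CPM (log2 fold change -0.51 ± 0.09, adjusted p = 0.00574) and held. Pln, the inhibitor of that pump, stood at 2145, 1692, 1919 and 2109.7 CPM in saline and 2328, 2398, 2350.0 and 2179.8 CPM after 11 days (adjusted p = 0.186), with no overlap between the groups. Cacnb2, a β-subunit of the L-type channel, fell from 51.99–58.3 to 37.3–44.8 CPM (log2 fold change -0.39 ± 0.08, adjusted p = 0.0129), with an adjusted p of 0.0503 without 11-day A. Cacna1h, a T-type calcium channel that the embryonic heart uses, moved the other way, from 4.54, 3.56, 5.63 and 2.92 CPM to 6.91, 6.44, 12.7 and 14.96 CPM (log2 fold change 1.27 ± 0.26, adjusted p = 0.0155). Libraries C and D of the 11-day group were higher for Cacna1h than A and B, and all 4 exceeded the saline libraries. Ryr2, the calcium release channel, and Cacna1c, the pore of the L-type channel, did not pass (adjusted p = 0.901 and 0.22).

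Most genes of the circadian clock changed. The clock is a loop in which Arntl (BMAL1) and Clock switch on Per, Cry, Nr1d and Ciart genes whose products then repress them. Of 23 clock and output genes tested, 13 were lower and 4 higher, and 13 of these 17 calls held. Arntl stood at 0.837, 0.67, 0.544 and 0.50 CPM in saline and at 3.24, 2.63, 2.86 and 2.86 CPM after 11 days (log2 fold change 2.17 ± 0.17, adjusted p = 2.89e-05). Nr1d1, the repressor REV-ERBα, stood at 24.9, 18.9, 25.7 and 19.8 CPM in saline and at 8.64, 6.66, 6.12 and 7.08 CPM after 11 days (log2 fold change -1.65 ± 0.12, adjusted p = 2.22e-05). Ciart, a repressor of CLOCK and BMAL1, stood at 6.15, 6.09, 7.43 and 5.08 CPM and 1.71, 1.22, 1.41 and 1.402 CPM (log2 fold change -2.11 ± 0.14, adjusted p = 1.68e-05). In all 3 genes the gap between the groups was wider than the spread within either.

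Dbp, a clock output factor that binds D-boxes, fell from 42.2, 35.8, 47.4 and 46.6 CPM to 18.8, 18.7, 17.3 and 17.3 CPM (log2 fold change -1.26 ± 0.09, adjusted p = 2.07e-05). Its relatives Hlf and Tef were also lower, with log2 fold changes of -1.01 and -0.39, and Nfil3, which binds the same sites as a repressor, was higher, from 2.62–3.002 to 4.35–5.83 CPM (log2 fold change 0.93 ± 0.12, adjusted p = 0.000792). Per1 fell from 16.1, 24.4, 38.1 and 25.4 CPM to 8.77, 8.88, 10.4 and 6.58 CPM (log2 fold change -1.599), Per2 by 0.81 and Per3 by 0.50 on the log2 scale, and Cry2 by 0.56. Rora, an activator of Arntl, rose from 32.2–38.9 to 41.3–46.7 CPM (adjusted p = 0.0399). Bhlhe40 and Bhlhe41, repressors at E-boxes, and Usp2, a clock-controlled ubiquitin protease, fell by 0.55, 0.63 and 0.65 on the log2 scale. The 4 calls that did not hold were Nr1d2 (adjusted p 0.0516 to 0.0922 without 1 of saline C, D, 11-day A, B, C, D), Tef (0.0502 to 0.0765 without 1 of saline C, 11-day A, B, C, D), Rora (0.0555 to 0.129 without 1 of saline A, B, 11-day A, B, C, D) and Per3 (0.0531 to 0.0563 without 1 of 11-day A, B). Clock and Cry1 did not pass (adjusted p = 0.329 and 0.969). The hours at which hearts were collected are nowhere given in the sources used here, so a difference in sampling hour and the treatment cannot be told apart for these genes. The same limit holds for any other transcript that varies with the hour of day, here and in the direct comparisons with 4 and 8 days.

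Clock factors act on short promoter sequences, and the 2 promoters below carry the most copies of an E-box (CACGTG, bound by CLOCK and BMAL1) and of a D-box (TTANGTAA, bound by DBP, TEF, HLF and NFIL3) among the called clock genes. Capitals mark the matches on either strand, none of which overlap. The windows run from 250 bases before to 30 bases after the start annotated in RefSeq (GRCm38.p6), at chr3:95882199-95882478, minus strand for Ciart and at chr4:151044636-151044915, minus strand for Per3.
Ciart: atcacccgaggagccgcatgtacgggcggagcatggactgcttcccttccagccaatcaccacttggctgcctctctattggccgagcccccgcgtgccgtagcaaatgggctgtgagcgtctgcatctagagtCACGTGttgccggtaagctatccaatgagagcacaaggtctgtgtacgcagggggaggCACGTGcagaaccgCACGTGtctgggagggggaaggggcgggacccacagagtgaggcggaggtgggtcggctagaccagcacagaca
Per3: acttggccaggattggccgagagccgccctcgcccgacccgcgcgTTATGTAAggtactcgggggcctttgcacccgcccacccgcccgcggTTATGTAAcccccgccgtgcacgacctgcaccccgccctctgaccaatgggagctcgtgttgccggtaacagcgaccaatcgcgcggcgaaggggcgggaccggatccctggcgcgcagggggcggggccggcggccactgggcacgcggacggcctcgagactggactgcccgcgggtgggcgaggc
Ciart held 3 E-boxes, the nearest starting 44 bases before the start of transcription, and Per3 held 2 D-boxes. Of the 14 called clock genes with a window in the RefSeq table, 4 held an E-box (Bhlhe41, Ciart, Per1 and Tef) and 1 a D-box in any window. Among all 27025 genes with a window, 7.71% held an E-box and 2.6% a D-box. Among all 32851 promoter windows of this length 6.79% held an E-box and 2.22% a D-box. These matches describe sequence and were not tested for binding.

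**Figure D3:**
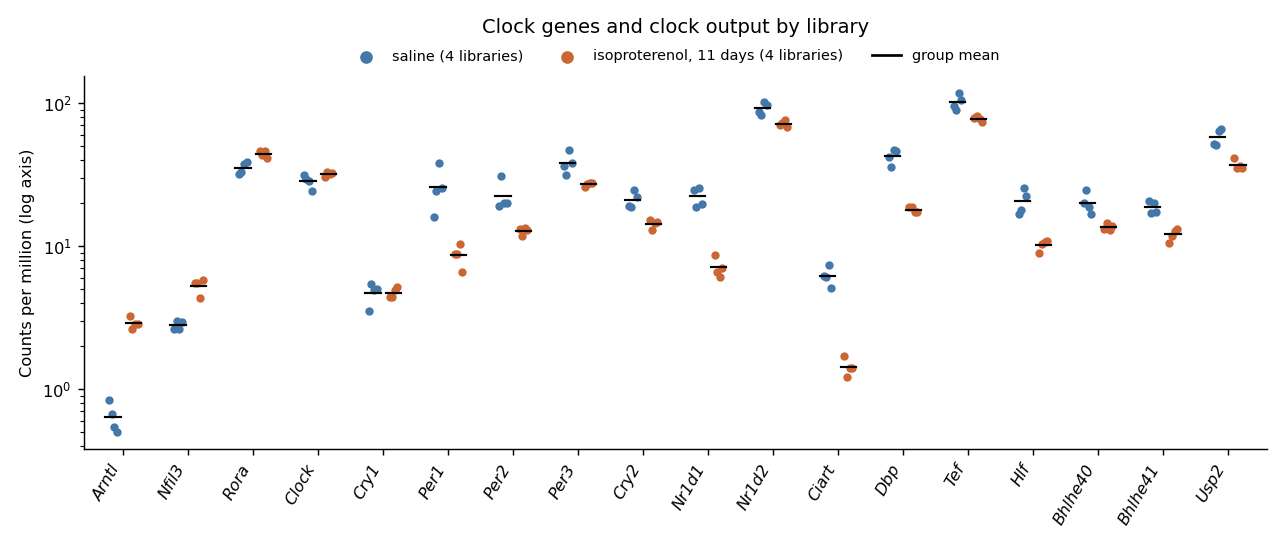
CPM on a log axis of 18 clock and clock output genes in the 4 saline (blue) and 4 11-day (orange) libraries, with group means as black bars. Arntl and Nfil3 lie higher and Ciart, Nr1d1, Dbp, Hlf and Per1 lower after 11 days with no overlap, whereas Cry1 overlaps.

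Metallothioneins, small cysteine-rich proteins that bind zinc and copper, were among the most increased transcripts. Mt2 stood at 1.51, 3.35, 1.04 and 1.54 CPM in saline and 13.9, 10.5, 9.599 and 6.89 CPM after 11 days (log2 fold change 2.54 ± 0.29, adjusted p = 0.000503). Mt1 stood at 24.4, 31.6, 16.95 and 35.7 CPM and 82.1, 61.4, 68.2 and 54.6 CPM (log2 fold change 1.31 ± 0.19, adjusted p = 0.00187). Both calls held and neither gene showed overlap between groups. They were the only calls among 18 tested genes of this list, which otherwise holds mostly zinc transporters (median 0.00). Their promoters are shown because the metal response element, the site of the zinc-sensing factor MTF1, is best known from them. Capitals mark its core (TGCACNC or TGCGCNC, either strand) in windows at chr8:94178839-94179118, plus strand for Mt1 and at chr8:94172368-94172647, plus strand for Mt2, with no overlapping matches.
Mt1: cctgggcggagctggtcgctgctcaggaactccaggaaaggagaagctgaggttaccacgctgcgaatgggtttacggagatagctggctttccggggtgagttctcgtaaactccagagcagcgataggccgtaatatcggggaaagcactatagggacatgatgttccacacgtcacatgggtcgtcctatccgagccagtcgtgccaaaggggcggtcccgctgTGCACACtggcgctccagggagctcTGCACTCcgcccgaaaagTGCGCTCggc
Mt2: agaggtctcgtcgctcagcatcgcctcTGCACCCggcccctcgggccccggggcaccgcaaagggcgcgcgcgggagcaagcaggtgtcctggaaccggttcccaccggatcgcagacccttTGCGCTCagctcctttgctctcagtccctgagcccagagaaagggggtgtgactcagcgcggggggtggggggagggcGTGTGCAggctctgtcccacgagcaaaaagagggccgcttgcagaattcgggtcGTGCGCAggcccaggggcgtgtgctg
Mt1 held 3 cores and Mt2 held 4, and 24.1% of all promoter windows and 26.6% of all genes with a window held at least 1. The core is short, and 9 of the 16 members of this list with a window held it.

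The remaining highest genes by fold change were picked among called genes of at least 1 CPM whose groups did not overlap. They were Serpina3n, Gm6852, Kcnc1, Grin2c, Myoc, Thbs4, Ankrd1, Dkk3, Apod, Ifi27l2a, Lcn2, Prg4 and Sfrp2. Serpina3n, a secreted protease inhibitor of the acute phase, rose from 1.69–3.04 to 8.23–12.4 CPM (log2 fold change 2.25 ± 0.16, adjusted p = 2.07e-05). Myoc, a secreted glycoprotein, rose from 0.719–2.16 to 4.11–6.31 CPM, and Apod, a lipid-binding apolipoprotein, from 1.42–2.25 to 4.22–6.32 CPM, and both held. Grin2c, a glutamate receptor subunit, was low throughout, at 0.234–0.525 CPM in saline and 1.04–1.71 CPM after 11 days (log2 fold change 1.94 ± 0.28, adjusted p = 0.00175). Kcnc1, a potassium channel, had a wide spread of 1.92, 1.03, 0.919 and 0.461 CPM after 11 days, and its adjusted p of 0.024 became 0.0553 to 0.0861 without 1 of saline A, C, 11-day A, B. Dkk3 and Sfrp2, secreted modulators of Wnt signals, were led by 11-day C and had adjusted p-values of 0.015 and 0.0473, which became 0.0534 without saline C and 0.0524 to 0.155 without 1 of saline A, B, C, D, 11-day A, C, D. Gm6852 is a processed pseudogene, whose reads cannot be told apart from those of its parent gene with certainty.

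At the other end stood Retnla, Scd4, 2210407C18Rik, Ciart, Rp1, Cfap61, 2010001K21Rik, Ucp3, Mylk4, Pdk4, Adcy1 and 4 genes of MHC class II presentation. Retnla, a secreted protein of alternatively activated macrophages, stood at 1.44, 1.75, 1.03 and 1.54 CPM in saline and 0.037, 0.081, 0.124 and 0.029 CPM after 11 days, the largest fold among called genes of at least 1 CPM whose groups did not overlap (log2 fold change -4.47 ± 0.36, adjusted p = 3.06e-05). Mylk4, a kinase of myosin light chains in heart muscle, fell from 79.4, 103, 118 and 129 CPM to 28.05, 29.7, 25.1 and 37.99 CPM (log2 fold change -1.83 ± 0.15, adjusted p = 3.27e-05). Cfap61 and Rp1, known from cilia, stood at 1.31–2.97 and 2.24–7.83 CPM in saline and at 0.295–0.707 and 0.369–1.89 CPM after 11 days. The call of Rp1 (adjusted p = 0.0181) was lost at 0.0502 to 0.0593 without 1 of saline C, 11-day B, D.

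Transcripts of the fetal and stress program, which enlarging hearts are known to reactivate, changed in part. Ankrd1, a stretch-responsive protein of the sarcomere and nucleus, rose from 313, 448, 157 and 153 CPM to 1022, 919, 1032 and 741 CPM (log2 fold change 1.79 ± 0.28, adjusted p = 0.00332) and held. Myh7, the slow myosin heavy chain, stood at 94.1, 138, 80.2 and 49.4 CPM in saline and at 175, 157, 167 and 163 CPM after 11 days (log2 fold change 0.87 ± 0.21, adjusted p = 0.035), with no overlap but an adjusted p of 0.0655 to 0.096 without 1 of saline A, C, 11-day A, B, C, D. Myh6, the adult fast form, did not pass (adjusted p = 0.999). Nppa, the atrial natriuretic peptide, stood at 13.7, 35.8, 9.56 and 5.497 CPM and 57.9, 20.6, 70.4 and 42.2 CPM (adjusted p = 0.0766), and saline B lay above 11-day B. Nppb, the B-type peptide, and Acta1, skeletal α-actin, overlapped too (adjusted p = 0.934 and 0.599).

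Pam, which adds the amide group to secreted peptides such as hormones, rose from 235–276 to 428–622 CPM (log2 fold change 1.02 ± 0.11, adjusted p = 0.000312), and Uchl1, a ubiquitin hydrolase, from 1.996–2.25 to 2.95–3.68 CPM (adjusted p = 0.0123), and both held. Synpo2l, a Z-disc protein, fell from 44.9–55.6 to 29.8–32.1 CPM (log2 fold change -0.68 ± 0.08, adjusted p = 0.000556), as did Hopx, a homeodomain protein of the heart (adjusted p = 0.0167, 0.0605 to 0.0617 without 1 of 11-day A, C, D). In all, 6 of 42 genes of this list were higher and 4 lower (median 0.17), the higher count was 12 without saline B, and the lower count was 2 without 1 of 11-day A, C, D. With all 15 libraries in one fit 3 were higher, and on scaling by total counts alone 2 lower.

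Ubiquitin ligases of muscle and autophagy genes gave 6 of 26 higher and 0 lower (median 0.06), and DESeq2 called 1 lower. Fbxo32 (atrogin-1), a ligase induced in atrophying muscle, rose from 101, 110.0, 114 and 124 CPM to 197, 153, 158 and 136 CPM (log2 fold change 0.52 ± 0.11, adjusted p = 0.0156). Trim63 (MuRF1) rose from 69.9–79.1 to 83.0–115 CPM (adjusted p = 0.0412, 0.0515 to 0.14 without 1 of saline A, B, C, D, 11-day A, B, C). Sqstm1 (p62), a receptor that carries ubiquitinated cargo to autophagosomes, rose from 116–123 to 165–185 CPM (log2 fold change 0.55 ± 0.07, adjusted p = 0.000718). Gabarapl1 and Map1lc3a, which are attached to autophagosome membranes, and Asb2, a ligase subunit, rose by 0.65, 0.60 and 0.37 on the log2 scale and held. In the sarcomere list 5 of 44 genes fell, among them Tcap, the titin cap (526–620.5 to 362–423 CPM, log2 fold change -0.56 ± 0.08, adjusted p = 0.00271), and Trim63 and Fbxo32 were its 2 higher genes. Under total-count scaling, edgeR left 2 of the lower sarcomere genes, and their count was 3 without 1 of saline D, 11-day A, B, C. The higher count was 1 without 1 of saline B, C, D, 11-day A, B, C.

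Fatty acid metabolism, the main fuel route of the adult heart, gave the largest number of lower genes of any list. The share was larger in the clock list (13 of 23) and in MHC class II presentation (7 of 15). Of 61 genes of uptake and oxidation, 26 fell and 1 (Acsl3, an acyl-CoA synthetase) rose, where 1.95% of all genes were lower and 1.8% higher. The list's median was -0.33 against -0.01 for all genes. Scaling by total counts alone left 15 lower, the lower count was 12 without 1 of 11-day B, C and 16 without saline A, and 13 calls of this list held. Cpt1a, a gatekeeper of fatty acid entry into mitochondria, stood at 40.8, 27.7, 43.98 and 34.5 CPM in saline and 18.02, 18.2, 21.7 and 22.2 CPM after 11 days (log2 fold change -0.88 ± 0.13, adjusted p = 0.00201). Its muscle form Cpt1b fell from 205–302 to 164–205 CPM (adjusted p = 0.0249, 0.0654 to 0.0964 without 1 of saline A, C, 11-day B, C). Hadha and Hadhb, the trifunctional protein of β-oxidation, fell from 506–688 to 388–414 CPM and from 513–675 to 404–445 CPM, and both held.

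Ech1, an auxiliary enzyme for unsaturated fatty acids, stood at 369.5, 253, 368 and 403 CPM in saline and 201, 199, 191 and 215 CPM after 11 days (log2 fold change -0.79 ± 0.12, adjusted p = 0.0024). Acsf2, an acyl-CoA synthetase, stood at 11.2, 12.7, 12.1 and 10.7 CPM and 6.34, 5.47, 5.04 and 5.83 CPM (log2 fold change -1.04 ± 0.09, adjusted p = 6.85e-05). Both separated the groups and held, as did Fabp3, the fatty acid binding protein of heart (722–963 to 473–603 CPM, adjusted p = 0.00841), and Cpt2, which works with Cpt1 at the inner membrane (65.7–82.9 to 40.01–50.9 CPM, adjusted p = 0.00149). Cd36, the main fatty acid transporter, fell from 625–772 to 508–566 CPM (adjusted p = 0.0315, 0.0618 to 0.129 without 1 of saline A, D, 11-day A, B, C, D).

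Ucp3, a mitochondrial carrier that follows fatty acid supply, stood at 24.1, 8.02, 20.3 and 16.3 CPM in saline and 2.801, 4.82, 4.77 and 5.56 CPM after 11 days (log2 fold change -1.94 ± 0.27, adjusted p = 0.00156). Acot1, a cytosolic acyl-CoA thioesterase, stood at 5.52, 2.94, 5.81 and 4.66 CPM and 1.05, 1.19, 1.41 and 2.04 CPM (log2 fold change -1.71 ± 0.23, adjusted p = 0.00115). Saline B was the lowest saline library for both genes and still exceeded every 11-day library. Pdk4, the kinase that blocks glucose oxidation when fat is burned, fell from 158, 141, 177 and 91.2 CPM to 36.5, 35.6, 44.3 and 48.4 CPM (log2 fold change -1.78 ± 0.17, adjusted p = 9.54e-05). Of 29 genes of lipid droplets 11 were lower and 0 higher (median -0.21), including Plin5, which coats droplets beside mitochondria (30.9–41.0 to 18.8–25.8 CPM, log2 fold change -0.78 ± 0.11, adjusted p = 0.00176), and Dgat2, which makes triglyceride (adjusted p = 0.00736). Gpam, the first enzyme of glycerolipid synthesis, stood at 201, 169, 202 and 172 CPM in saline and 114, 101, 105 and 115 CPM after 11 days (log2 fold change -0.77 ± 0.08, adjusted p = 0.000312), and Mgll, which releases the last fatty acid of a triglyceride, fell from 38.6–49.6 to 23.6–30.5 CPM (log2 fold change -0.68 ± 0.10, adjusted p = 0.00155). With total counts alone as the scale, edgeR left 7 of these, and the count was 6 without 11-day C and 7 without 1 of saline A, 11-day B.

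The nuclear receptors and coactivators that control these genes were called about as often as all genes. Ppargc1b (PGC-1β), a coactivator, fell from 21.6, 21.7, 24.1 and 19.4 CPM to 11.7, 12.6, 12.4 and 17.9 CPM (log2 fold change -0.67 ± 0.12, adjusted p = 0.00868) and was the only call among 27, while Ppara and Ppargc1a did not pass (adjusted p = 0.997 and 0.387). No gene of the 71 for the nuclear-encoded respiratory chain and ATP synthase was called by edgeR, where 1.8% and 1.95% of all genes were, and 1 was higher and 8 lower at an unadjusted p under 0.05. DESeq2 called 1 higher and 4 lower, limma voom 0 and 3, and leaving out 1 library at most 4 lower and 1 higher. The list's median was -0.06.

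Glucose and glycogen genes gave 8 higher and 3 lower of 41, where 1.8% of all genes were higher and 1.95% lower. With effective lengths 3 were higher, and by DESeq2 6 were lower. Pfkfb2, the cardiac enzyme that makes the activator of phosphofructokinase, stood at 46.5, 56.1, 42.8 and 52.2 CPM in saline and 128, 122, 104 and 93.6 CPM after 11 days (log2 fold change 1.18 ± 0.11, adjusted p = 9.54e-05). Its isoenzymes Pfkfb1 and Pfkfb3 moved the other way, from 4.87–11.7 to 2.82–5.52 CPM and from 4.79–6.09 to 3.36–4.09 CPM (adjusted p = 0.0118 and 0.0281). The groups overlapped for Pfkfb1, and Pfkfb3 had an adjusted p of 0.0551 to 0.0964 without 1 of saline A, C, 11-day B, C, D. Ppp1r3c, which targets a phosphatase to glycogen, rose from 29.8–58.8 to 69.3–73.1 CPM (log2 fold change 0.72 ± 0.15, adjusted p = 0.0167). Fbp2, the muscle fructose bisphosphatase, fell from 9.09–15.3 to 4.55–7.52 CPM (log2 fold change -1.09 ± 0.16, adjusted p = 0.00234). Slc2a1 (GLUT1) and Eno3, muscle enolase, were higher (adjusted p = 0.0272 and 0.0168), with 0.0562 to 0.095 without 1 of saline A, C, 11-day A, B, C for Slc2a1 and 0.0585 to 0.0643 without 1 of 11-day A, B for Eno3, while Slc2a4 (GLUT4) did not pass (adjusted p = 0.0749). The higher count was 2 without 11-day A, 3 without 11-day B, 4 without 1 of 11-day C, D and 5 without 1 of saline A, C. Scd4, a stearoyl-CoA desaturase known from heart, stood at 4.51, 3.18, 4.74 and 2.46 CPM and 0.24, 0.487, 0.283 and 0.932 CPM (log2 fold change -2.86 ± 0.34, adjusted p = 0.000503), whereas Scd1 and Scd2 of the same family rose by 0.52 and 0.56 on the log2 scale. The adjusted p of Scd1 was 0.0625 to 0.109 without 1 of saline A, C, D, 11-day A, C, D.

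Extracellular matrix transcripts rose in part, and neither chain of type I collagen was called. Col1a1, a chain of type I collagen, stood at 34.5, 56.4, 33.4 and 37.1 CPM in saline and 56.0, 41.8, 99.2 and 53.5 CPM after 11 days (adjusted p = 0.155). Postn (periostin), a protein of activated fibroblasts, stood at 14.9, 26.2, 13.7 and 13.9 CPM and 21.3, 16.4, 121 and 25.9 CPM (adjusted p = 0.155). In both genes saline B was the highest saline library and 11-day C stood far above the other treated libraries. The 20 markers of activated fibroblasts summed to 101.4 to 167.0 CPM in saline, to 136.5, 116.5 and 139.5 CPM in 11-day A, B and D, and to 321.9 CPM in 11-day C.

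Matricellular genes and proteoglycans gave 12 higher and 0 lower of 49 (median 0.34). The higher count was 4 without saline A, 5 without 1 of saline C, 11-day C and 6 without 11-day A, and 6 with effective lengths. Lum (lumican), a small proteoglycan bound to collagen, stood at 18.7, 19.3, 16.5 and 18.9 CPM in saline and 32.1, 37.7, 58.1 and 30.5 CPM after 11 days (log2 fold change 1.11 ± 0.17, adjusted p = 0.00223). Mgp, an inhibitor of calcification, rose from 17.7–25.7 to 33.9–44.1 CPM (log2 fold change 0.81 ± 0.11, adjusted p = 0.00157). Acan (aggrecan), a large cartilage proteoglycan, was near 0 in saline (0.018, 0, 0.042 and 0.125 CPM) and at 0.608, 0.704, 0.619 and 0.647 CPM after 11 days (adjusted p = 0.000315), with no read in saline B. Thbs4, a thrombospondin of injured heart, gave 2.58, 1.22, 7.83 and 2.31 CPM, led by 11-day C, and its adjusted p of 0.0301 became 0.0784 to 0.0933 without 1 of saline A, C.

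Among collagens 4 were higher and 1 lower of 37, where 1.8% of all genes were higher and 1.95% lower. Col14a1, a fibril-associated collagen, rose from 6.997–12.3 to 13.1–28.6 CPM (log2 fold change 1.09 ± 0.22, adjusted p = 0.0138), and Col27a1, a minor fibrillar collagen, from 2.75–4.63 to 5.84–6.91 CPM (log2 fold change 0.84 ± 0.13, adjusted p = 0.00351). The number of higher collagens was 2 without 1 of saline A, C, D, 11-day A, C, D and 9 without saline B, and the number lower 0 without 1 of saline A, C, 11-day A, C, D. Laminin chains split: Lama5 (102–122 to 186–207 CPM, log2 fold change 0.80 ± 0.08, adjusted p = 0.000118) and Lama3 (1.75–2.26 to 3.56–4.06 CPM) rose, and Lamb3 fell from 5.01–7.64 to 3.54–4.02 CPM (log2 fold change -0.83 ± 0.13, adjusted p = 0.00284).

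Of 44 matrix enzymes and inhibitors, 6 were higher and 5 lower, where 1.8% of all genes were higher and 1.95% lower. The lower count was 2 without 11-day B and 3 without 1 of saline C, 11-day A, C, D, 2 on scaling by total counts alone and 3 with effective lengths. Mmp2, a gelatinase, stood at 19.6, 25.6, 18.9 and 22.7 CPM in saline and 42.6, 36.8, 64.6 and 44.1 CPM after 11 days (log2 fold change 1.12 ± 0.15, adjusted p = 0.00128). Mmp3 (stromelysin) rose from 0.51–1.07 to 1.35–3.02 CPM, and Adam19, a membrane protease, from 7.803–12.9 to 16.2–22.7 CPM, and both held. Timp4, an inhibitor of matrix proteases abundant in heart, fell from 12.04–22.8 to 4.96–10.5 CPM (log2 fold change -1.103 ± 0.23, adjusted p = 0.0167), and Timp3 from 103–130.4 to 76.9–104 CPM (adjusted p = 0.0499), with adjusted p-values of 0.0593 without 11-day B and 0.0519 to 0.146 without 1 of saline B, C, D, 11-day A, B, C, D. Pdgfra, the receptor that marks fibroblasts, rose from 26.9–29.1 to 36.1–48.2 CPM (log2 fold change 0.59 ± 0.09, adjusted p = 0.0034). The 19 fibroblast markers summed to 1030.9 to 1257.2 CPM in saline and 1388.6 to 1974.5 CPM after 11 days, with 18 of 19 log2 fold changes above 0 and 4 called (the count was 2 without 11-day C and 7 without saline B), and the part of this in the matrix results was not tested.

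Of 51 growth factors and Wnt modulators, 6 were higher and 3 lower, and of 46 genes of TGF-β, BMP and activin signalling 2 and 2, where 1.8% of all genes were higher and 1.95% lower. The higher growth factor count was 2 without 1 of saline C, 11-day C and 3 without 11-day A, with 1 lower on scaling by total counts alone. For TGF-β signalling the higher count was 1 without 1 of saline A, 11-day A, B, C, D and the lower count 1 without 1 of saline C, 11-day A, B and 4 without saline B, with 0 lower on scaling by total counts alone. Bambi, a decoy receptor that dampens TGF-β signals, stood at 4.03, 3.93, 3.91 and 4.12 CPM in saline and 11.4, 9.69, 10.4 and 8.48 CPM after 11 days (log2 fold change 1.32 ± 0.10, adjusted p = 2.22e-05). Bmpr1a, a BMP receptor, fell from 50.6–59.95 to 33.6–42.2 CPM, and Fgf1 and Fgf16, fibroblast growth factors of heart muscle, from 95.2–121 to 69.7–80.5 CPM and from 3.35–6.09 to 1.95–3.13 CPM, and all 3 held. Phosphatases and inhibitors that shut off MAP kinases gave 7 lower and 0 higher of 23 (median -0.29), with 1 higher under filterByExpr. Under total-count scaling, edgeR left 3, and the count was 3 without 1 of 11-day B, C and 4 without 1 of saline C, 11-day A. Dusp1 stood at 19.9, 22.03, 17.7 and 19.4 CPM in saline and 13.5, 11.7, 9.26 and 10.4 CPM after 11 days (log2 fold change -0.82 ± 0.11, adjusted p = 0.00128), and Dusp18 and Dusp8 fell by 0.86 and 0.68 on the log2 scale and held. Egr1, an immediate early gene, stood at 2.67, 8.74, 2.44 and 2.83 CPM and 1.46, 1.16, 1.22 and 1.84 CPM (adjusted p = 0.0349, 0.0906 to 0.098 without 1 of 11-day A, B, C), and saline B was above the other saline libraries.

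Genes of MHC class II antigen presentation, used by dendritic cells, B cells and some macrophages, gave some of the largest decreases. Of 15 tested, 7 were lower and 0 higher (median -1.72), and 6 calls held. H2-Aa, a class II α-chain, stood at 17.1, 20.5, 17.5 and 19.7 CPM in saline and 3.92, 3.63, 5.799 and 2.36 CPM after 11 days (log2 fold change -2.26 ± 0.20, adjusted p = 5.31e-05). Cd74, the invariant chain, stood at 36.2, 49.5, 33.9 and 37.3 CPM and 11.1, 9.04, 14.1 and 5.48 CPM (log2 fold change -1.99 ± 0.22, adjusted p = 0.000315). In both genes each treated library was under the lowest saline library, with 11-day C the highest and 11-day D the lowest treated library. H2-Eb1 and H2-Ab1, the β-chains, gave log2 fold changes of -2.27 ± 0.21 and -2.05 ± 0.22. H2-DMa and H2-DMb1, which load peptide, gave -1.15 ± 0.21 and -1.72 ± 0.31. Ciita, the master activator of these genes, stood at 1.44, 2.36, 2.02 and 1.46 CPM and 1.25, 0.433, 1.202 and 1.03 CPM (adjusted p = 0.0875).

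Class II promoters share a module that ends in an inverted CCAAT box, shown here for the α-chain and a β-chain of the set at chr17:34287794-34288073, minus strand (H2-Aa) and chr17:34305617-34305896, plus strand (H2-Eb1), with the letters CTGATTGG in capitals.
H2-Aa: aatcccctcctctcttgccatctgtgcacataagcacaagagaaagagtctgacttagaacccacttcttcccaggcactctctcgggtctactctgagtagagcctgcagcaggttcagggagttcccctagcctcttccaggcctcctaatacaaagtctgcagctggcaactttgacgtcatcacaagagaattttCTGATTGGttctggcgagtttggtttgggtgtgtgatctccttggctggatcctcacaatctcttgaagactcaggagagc
H2-Eb1: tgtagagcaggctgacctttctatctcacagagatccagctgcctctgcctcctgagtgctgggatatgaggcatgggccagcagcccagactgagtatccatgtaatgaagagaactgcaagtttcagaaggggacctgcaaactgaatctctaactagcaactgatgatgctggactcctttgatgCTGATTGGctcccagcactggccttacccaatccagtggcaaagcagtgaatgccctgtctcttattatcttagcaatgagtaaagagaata
The match starts 51 bases before the start in H2-Aa and 62 bases before it in H2-Eb1. It was found in 2 of the 5 called members with a window and in 4.61% of all genes with a window, counting either strand. Of all windows of this length, 4.02% held it.

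Markers of dendritic cells and lymphocytes were low in all libraries. Of 13 dendritic cell markers tested, 0 gave a log2 fold change above 0 and 2 were called lower, and their sum was 18.1 to 25.0 CPM in saline and 15.9 to 16.7 CPM after 11 days. The lower count was 1 without 1 of saline D, 11-day A, C, D. Itgax (CD11c) stood at 0.321, 0.641, 0.351 and 0.292 CPM and 0.092, 0.054, 0.124 and 0.049 CPM (log2 fold change -2.32 ± 0.41, adjusted p = 0.00699). The 22 lymphocyte markers summed to 5.6 to 7.5 and 3.4 to 3.9 CPM, with 2 called lower (Cd79a and Ighd, parts of the B cell receptor) at under 1 CPM in each library. The lymphocyte count was 0 without 1 of saline A, C, 11-day A, B, 1 without 1 of 11-day C, D and 4 without saline D. Neither Cd79a nor Ighd held (adjusted p 0.0601 to 0.102 without 1 of saline A, C, 11-day A, B, C, D for Cd79a and 0.0588 to 0.0986 without 1 of saline A, C, 11-day A, B, C for Ighd). Of 25 macrophage and monocyte markers 20 gave a log2 fold change above 0 (median 0.25), and their sum was 117.0 to 185.1 CPM in saline and 166.2 to 201.7 CPM after 11 days, with 2 called higher and 1 lower (1 without 1 of saline D, 11-day A, B and 6 without saline B for the higher count). Of 16 resident macrophage markers 13 lay above 0 (median 0.32), with sums of 120.6 to 179.1 CPM and 163.0 to 191.4 CPM. In this list 1 was called higher (Gas6) and 1 lower (Retnla). Its higher count was 0 without 1 of saline A, C, 11-day A, B, C, D and 3 without saline B. Among single markers, Adgre1 (F4/80) and Csf1r gave log2 fold changes of -0.01 and -0.01 (adjusted p = 0.989 and 0.982). Lyz2 (lysozyme) rose from 28.8–55.4 to 58.5–71.9 CPM (adjusted p = 0.0274, 0.0519 to 0.0741 without 1 of saline D, 11-day A, B, C), and Cx3cr1, a chemokine receptor of resident macrophages, fell from 0.916–1.996 to 0.304–0.636 CPM (log2 fold change -1.66 ± 0.29, adjusted p = 0.00689). The part of any cell type in the class II result was not tested.

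Of 56 interferon response genes 13 were higher and 0 lower (median 0.47), against 1.8% of all genes higher, and with effective lengths 13 were higher and 2 lower. Ifit3, an inhibitor of viral RNA translation, stood at 5.22, 7.403, 5.36 and 4.62 CPM in saline and 12.6, 14.3, 9.69 and 17.8 CPM after 11 days (log2 fold change 1.27 ± 0.17, adjusted p = 0.00131). Ifi27l2a stood at 2.103, 3.18, 2.88 and 1.499 CPM and 7.17, 7.99, 4.93 and 10.8 CPM (log2 fold change 1.65 ± 0.23, adjusted p = 0.00156). In both genes 11-day D was the highest and 11-day C the lowest treated library, and the groups did not overlap. Ifit3b, a near copy of Ifit3 with which it may share reads, rose from 1.98–2.08 to 4.28–6.34 CPM, Oasl2, related to the enzymes that sense double-stranded RNA, from 2.87–5.22 to 5.27–12.04 CPM, and Gbp3, a guanylate binding protein, from 5.75–10.2 to 10.4–16.99 CPM, and all 3 held. The number of higher genes was 8 without saline C and 26 without saline B, and 8 calls held. Complement genes gave 4 higher and 0 lower of 23, among them Cfb, a protease of the alternative pathway (0.41–0.554 to 0.831–1.47 CPM). The complement count was 2 without 1 of saline A, C, 11-day A, C, D and 7 without saline D, and 7 on scaling by total counts alone. Lcn2, a siderophore-binding protein, rose from 0.321–0.458 to 0.601–1.57 CPM (log2 fold change 1.59 ± 0.29, adjusted p = 0.00904).

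Red blood cell transcripts varied with the library. Hba-a1, α-globin, stood at 62.8, 112, 53.6 and 22.8 CPM in saline and 16.1, 13.8, 14.04 and 38.8 CPM after 11 days (adjusted p = 0.0435), overlapping through saline D and 11-day D, with an adjusted p of 0.069 to 0.132 without 1 of saline A, B, C, 11-day A, B, C. The 11 blood cell markers summed to 108.9 to 576.6 CPM and 69.6 to 203.2 CPM.

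Of 46 genes of DNA replication and mitosis, 6 were lower and 0 higher (median -0.55). Mki67, the proliferation antigen Ki-67, stood at 4.49, 8.63, 4.85 and 3.998 CPM in saline and 1.18, 2.11, 2.48 and 1.25 CPM after 11 days (log2 fold change -1.67 ± 0.27, adjusted p = 0.00366). Top2a, the topoisomerase that untangles DNA, stood at 1.51, 3.73, 2.23 and 1.58 CPM and 0.461, 1.14, 1.08 and 0.785 CPM (log2 fold change -1.41 ± 0.30, adjusted p = 0.0214), with an adjusted p of 0.0597 to 0.0626 without 1 of 11-day A, D. Saline B was the highest saline library for both, and the groups did not overlap. Other cells than muscle cells divide in adult heart, and these data do not assign the transcripts to a cell type. Of the other calls, Ccna2, Kif11 and Prc1, which drive and complete mitosis, held, and Cdk1, the mitotic kinase, had an adjusted p of 0.0524 to 0.101 without 1 of saline A, B, C, 11-day A, B, C, D. The count of lower genes stayed between 4 and 7 when 1 library was left out and was 2 with all 15 libraries in one fit.

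The direct comparisons with the shorter treatments ask which transcripts still moved between 4 or 8 and 11 days. Direct tests found 1006 genes higher (3.75%) and 1760 lower (6.55%) after 11 days than after 4 days, and 16 higher (0.0596%) and 21 lower (0.0782%) than after 8 days. The number higher than at 4 days lay between 444 and 670 without 4-day A or C or 11-day A or B and was 1661 without 4-day B, and the number lower lay between 993 and 1169 without 4-day A or 11-day B or D. Against 8 days the counts rose to 46 higher and 68 lower without 8-day B and lay at 4 to 7 higher and 7 to 11 lower without 8-day C or 11-day A or B. Without 11-day D edgeR called 0 higher and 3 lower, with 1236 and 1275 at an unadjusted p under 0.05. DESeq2 called 188 higher and 124 lower than at 8 days. Scaling by total counts alone turned the split against 4 days to 316 higher and 2397 lower. Mki67 was lower after 11 days than after 4 days by 3.95 in log2 units (SE 0.35, adjusted p = 0.000137) and lower than after 8 days by 2.26 (SE 0.26, adjusted p = 0.00465). Against the shared saline libraries its log2 fold changes at 4, 8 and 11 days were 2.27, 0.59 and -1.67. Those of Top2a were 2.63, 0.67 and -1.41, those of Ccna2 2.29, 0.59 and -1.61 and those of Prc1 2.09, 0.42 and -1.35, and all 3 were also lower after 11 than after 8 days (adjusted p = 0.0232, 0.0427 and 0.0427). The call of Mki67 against 8 days passed in each of the 7 fits without 1 library, and the adjusted p of the other 3 was 0.0636 to 0.0757 without 1 of 11-day D, 8-day C for Top2a, 0.0525 to 0.162 without 1 of 11-day A, B, C, D, 8-day A, C for Ccna2 and 0.0578 to 0.15 without 1 of 11-day A, B, D, 8-day C for Prc1.

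Of the 1006 genes called against saline, 317 also differed from 4 days. They comprised 107 higher than both, 138 lower than both, 44 above saline but below 4 days, and 28 below saline but above 4 days. Fhl1, a LIM protein that senses strain in the sarcomere, was of the third kind, at log2 fold changes of 2.12, 1.35 and 0.53 at 4, 8 and 11 days, and lower after 11 days than after 4 (adjusted p = 0.00189) and 8 days (adjusted p = 0.0232, 0.0689 to 0.0757 without 1 of 11-day B, D, 8-day C). Bgn (biglycan), at 1.87, 1.11 and 0.56, and Serpina3n, at 3.49, 2.198 and 2.25, were also below 4 days (adjusted p = 0.000365 and 0.00199), and Col1a1, at 3.43, 1.29 and 0.64, fell from 4 to 11 days (adjusted p = 0.000793). The call of Bgn against saline did not hold (adjusted p 0.0645 to 0.0974 without 1 of saline A, C, D, 11-day A, C).

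Other genes were further from saline after 11 than after 4 days. For the clock genes Dbp and Per1 among them, sampling hour and duration cannot be told apart. Dbp, at -0.48, -0.51 and -1.26, was lower after 11 days than after 4 (adjusted p = 0.000285) and 8 days (adjusted p = 0.00389), and Per1, at -0.89, -0.77 and -1.599, likewise (adjusted p = 0.0109 and 0.0427, the latter 0.0603 to 0.159 without 1 of 11-day A, B, D, 8-day A, C). Itgax, at 1.01, -0.55 and -2.32, and H2-Aa, at -1.28, -1.41 and -2.26, were lower than after 4 days (adjusted p = 0.000257 and 0.0247, the latter 0.0541 to 0.0759 without 1 of 11-day A, B, D, 4-day A, C, D), and the difference from 8 days did not pass for either (adjusted p = 0.16 and 0.196). Mmp3, at 0.35, -0.17 and 1.53, was higher after 11 than after 4 days (adjusted p = 0.0121).

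Epha4, a receptor of ephrins, and Cacybp, a partner of ubiquitin ligases, stood near saline at 4 and 8 days and above it at 11 days. Epha4 was at 30.2, 31.97, 25.5 and 25.9 CPM in saline and 45.9, 53.8, 45.1 and 54.3 CPM after 11 days, with log2 fold changes of 0.05, 0.21 and 0.81, and it exceeded 8 days (adjusted p = 0.0382, 0.0515 to 0.0892 without 1 of 11-day B, D, 8-day A, C). Cacybp was at 0.02, 0.18 and 0.86 (adjusted p = 0.0394 against 8 days, 0.0548 to 0.109 without 1 of 11-day A, B, D, 8-day A, C). Papln, a matrix glycoprotein, was at 0.23, -0.08 and -0.95 and lower after 11 than after 8 days (adjusted p = 0.0387, 0.065 to 0.125 without 1 of 11-day A, D, 8-day C). Tuba4a, an α-tubulin, gave -0.96, -1.86 and -1.21 and was higher after 11 than after 8 days (adjusted p = 0.0427, 0.0554 to 0.15 without 1 of 11-day A, B, D, 8-day B, C) while lower than in saline (159–263 CPM in saline, 83.1–116 CPM after 11 days). Stum and Tbc1d10c stood below saline at 4 days and above it at 11 days, at log2 fold changes of -0.48, 0.14 and 0.71 and -0.51, 0.21 and 0.71, and Kcnv2 was less far below saline at 11 days than at 4 (-2.003, -0.96 and -0.48). The pseudogenes Gm10359 and Gm12671 had identical counts of 0 in all 11-day libraries and in saline A and D, with 36.3 and 87.9 CPM in saline B and C, and their assignment of reads is uncertain.

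**Figure D4:**
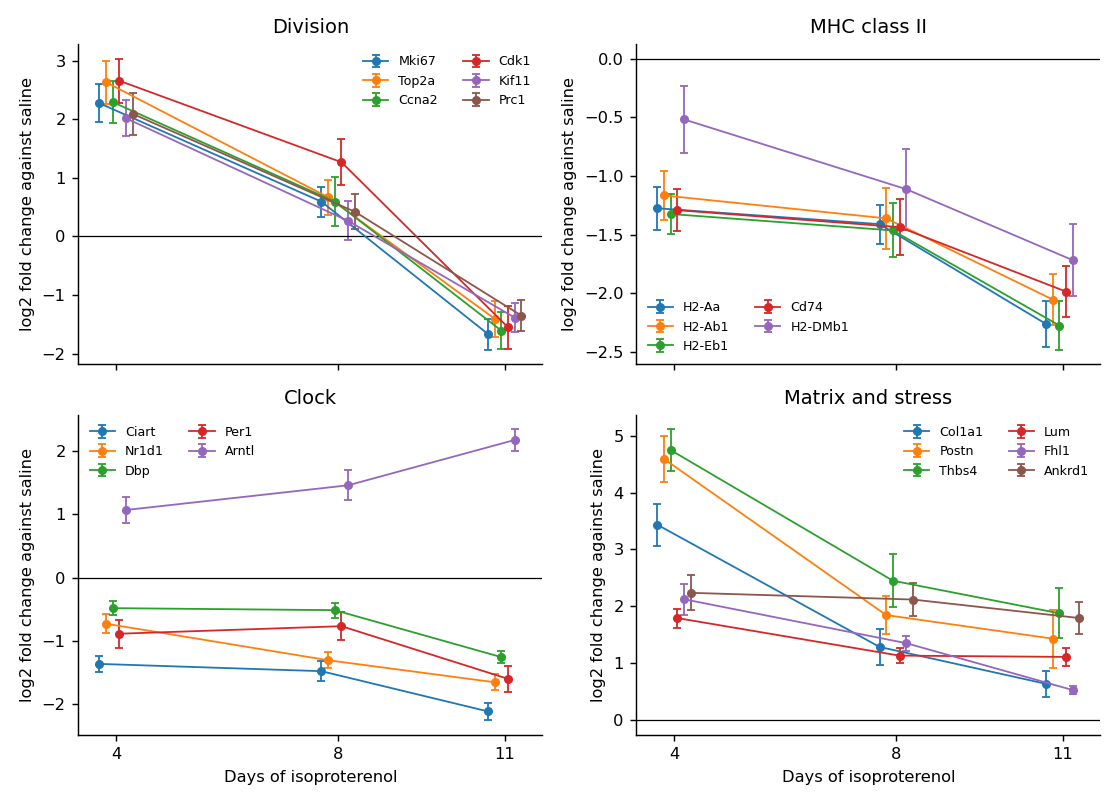
Log2 fold change against the same 4 saline libraries after 4, 8 and 11 days (points, with 1 standard error, shifted sideways for legibility) for genes of division, MHC class II, the clock, and matrix and stress. The division genes lay above 0 at 4 days and below 0 at 11 days, and H2-Aa was at -1.28, -1.41 and -2.26. The 3 time points share their saline libraries, so they are not independent of each other.

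Long non-coding RNAs gave 26 higher and 55 lower of 6794 tested, 1.19% in all, where 5.38% of protein-coding genes and 1.8% and 1.95% of all genes in the separate directions were called. The classes were not matched for expression level, so these shares do not compare how strongly they responded. Plet1os, an antisense transcript, stood at 4.19, 2.48, 2.75 and 3.37 CPM in saline and 6.97, 8.09, 7.78 and 5.904 CPM after 11 days (log2 fold change 1.16 ± 0.15, adjusted p = 0.00118). Gm13943, E130119H09Rik, Epb41l4aos and 2410006H16Rik were the other 4 of the 5 highest by fold among those of at least 1 CPM, with log2 fold changes of 1.31, 1.15, 1.06 and 0.91. Downward stood Gm49891, from 3.31, 3.35, 2.41 and 3.37 CPM to 0.405, 0.704, 1.202 and 1.45 CPM (log2 fold change -1.65 ± 0.28, adjusted p = 0.00599), and 2010001K21Rik, Gm10635, Gm28979 and Foxo6os, at -1.96, -1.68, -1.599 and -1.38. Of these 10, 2010001K21Rik and Epb41l4aos did not hold (adjusted p 0.0508 to 0.1 without 1 of saline A, C, D, 11-day B, C and 0.0574 to 0.0621 without 1 of saline A, C, 11-day A, C). Carmn, a lncRNA of smooth muscle and heart, fell from 6.15–6.79 to 4.296–5.08 CPM (adjusted p = 0.015, 0.0533 to 0.0552 without 1 of 11-day B, C), and Zfas1, a host of small nucleolar RNAs, rose from 2.73–3.21 to 4.001–4.93 CPM (log2 fold change 0.58 ± 0.11, adjusted p = 0.0101). The strand setting of the counting is stated in none of the sources used here, so reads of Plet1os and Foxo6os and those of the genes opposite them cannot be told apart with certainty.

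Isoform shares changed in 32 of 9079 genes with at least 2 measured isoforms (0.352%), by edgeR's test of unequal change among a gene's isoforms. Fhl1, with an adjusted p of 0.000165, was the only gene called in all 8 fits that left out 1 library. The isoform Fhl1-204 made up 9.19, 8.79, 5.54 and 12.6% of the gene's estimated transcripts in saline and 26.4, 27.2, 28.7 and 21.1% after 11 days. The main isoform Fhl1-201 made up 76.96, 70.2, 78.99 and 70.3% and 59.7, 51.6, 55.9 and 61.2%. The groups did not overlap in either, and the gene as a whole rose from 28.5–31.98 to 42.9–47.5 CPM (log2 fold change 0.53 ± 0.07, adjusted p = 0.00118).

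Adra1a, lower as a gene, also changed in makeup (adjusted p = 0.00659). Its isoform Adra1a-201 made up 13.5, 8.69, 12.2 and 8.37% in saline and 23.4, 24.6, 23.8 and 19.9% after 11 days, and Adra1a-205 made up 31.9, 30.3, 29.3 and 26.9% and 23.4, 17.6, 22.7 and 23.97%. For Myh7 (adjusted p = 0.00383), Myh7-201 made up 21.9, 24.98, 9.64 and 11.8% and 37.5, 34.5, 38.1 and 32.8%, and Myh7-202, annotated as a retained intron, 22.6, 13.4, 29.1 and 24.2% and 7.25, 8.04, 8.69 and 8.38%. The adjusted p of the isoform test was 0.0889 to 0.163 without 1 of 11-day A, B, C for Adra1a and 0.0948 to 0.154 without 1 of 11-day A, B, C for Myh7. The 9 genes with smaller p than Fhl1 were Fcsk, Rabep1, Foxp4, Smc5, Mapk8ip1, Rnase4, Elmo2, Pdik1l and Uhrf1bp1l. In each of them an isoform at or near 0 in saline reached 10 counts in the 4 11-day libraries alone. Such an isoform passed the filter only through the group where it is high and drops out when any 11-day library is left out, so neither these calls nor their loss in those fits speaks for or against them. For Fcsk, a fucose kinase, Fcsk-204 was estimated at 0% in all 4 saline libraries and at 21.9, 10.5, 11.6 and 10.6% after 11 days. In 12 of the 32 called genes an isoform was estimated at 0 in every library of a group, and when only isoforms with at least 10 counts in all 8 libraries were kept, 42 of 6253 genes were called, 14 of them among the 32. The number of calls ran from 3 without 11-day B to 67 without saline B, and the same filter enters the fits without an 11-day library.

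**Figure D5:**
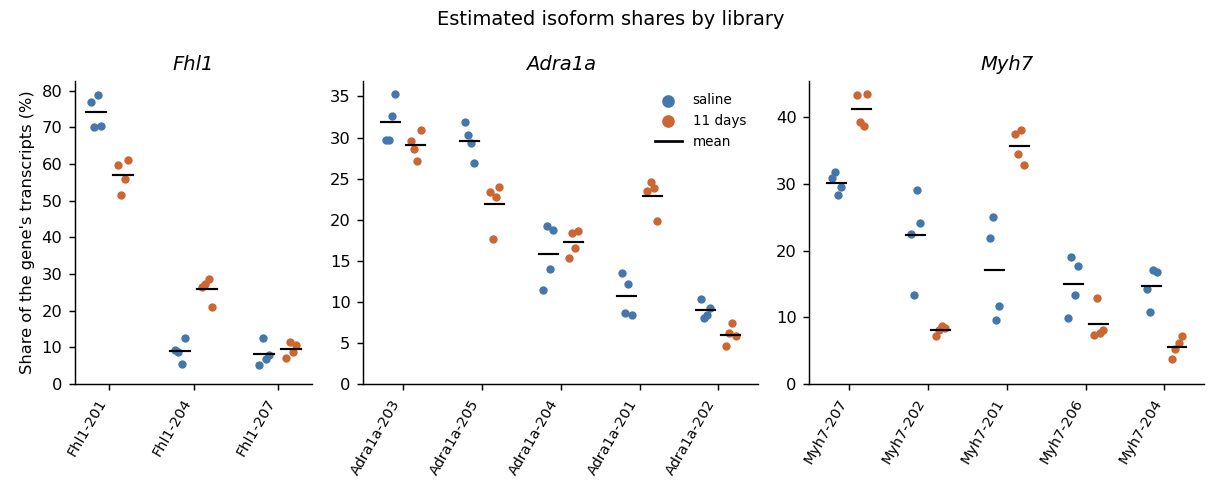
Estimated share of each gene's transcripts (percent) for the tested isoforms of Fhl1, Adra1a and Myh7 in the 4 saline (blue) and 4 11-day (orange) libraries, with means as black bars. Fhl1-204, Adra1a-201 and Myh7-201 were higher in all 4 treated libraries than in any saline library.

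Splicing factors were called downward. Of 63 SR and hnRNP genes, 6 were lower and 0 higher (median -0.07, 0.01 with 0 lower on scaling by total counts alone), where 1.95% of all genes were lower. The lower count was 3 without 1 of 11-day B, C, D, 2 with effective lengths and 12 by DESeq2. Among them was Srsf2, an SR protein, at 37.9, 36.6, 35.8 and 37.1 CPM in saline and 24.97, 27.99, 27.4 and 27.04 CPM after 11 days (log2 fold change -0.46 ± 0.07, adjusted p = 0.00215). Ddx39b, a helicase of splicing and export, fell from 23.6–25.95 to 17.3–18.6 CPM (log2 fold change -0.45 ± 0.07, adjusted p = 0.00237). Rbm20, the regulator of titin splicing, did not pass (adjusted p = 0.909). Of 33 genes of the unfolded protein and integrated stress response 5 were lower and 0 higher: Hspa5, Canx, Pdia6 and Hyou1, which fold proteins in the endoplasmic reticulum, and Psat1, an enzyme of serine synthesis. Hspa5 (BiP) stood at 253, 252, 161 and 195 CPM and 136, 115, 112 and 147 CPM (log2 fold change -0.76 ± 0.14, adjusted p = 0.00832). Scaling by total counts alone left 2 of the 5, and the count was 3 without 1 of saline A, D, 11-day A, B, C and 8 without saline C. Among antioxidant genes, Gsta3, a glutathione transferase, rose from 3.12–5.21 to 7.44–9.01 CPM (log2 fold change 0.98 ± 0.14, adjusted p = 0.00201), and the glutathione peroxidases Gpx1 and Gpx3 by 0.47 and 0.52 on the log2 scale, and all 3 held.

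Of 28 tubulin and microtubule genes 5 were lower and 0 higher. The lower count was 3 without 1 of 11-day B, C, and 3 on scaling by total counts alone. Tubb4b and Tuba1b, chains of the microtubule, fell from 54.3–65.4 to 24.6–33.9 CPM (log2 fold change -0.92 ± 0.10, adjusted p = 0.000312) and from 54.01–63.6 to 28.6–39.5 CPM (log2 fold change -0.77 ± 0.10, adjusted p = 0.00108). In cholesterol and fatty acid synthesis 4 of 34 genes were higher and 2 lower, and the higher count was 2 without 1 of saline D, 11-day C. Me1, malic enzyme, which supplies NADPH, stood at 57.6, 57.2, 60.9 and 64.2 CPM in saline and 39.9, 33.7, 34.8 and 40.6 CPM after 11 days (log2 fold change -0.69 ± 0.08, adjusted p = 0.000503), and Cyp51, an enzyme of cholesterol synthesis, moved the other way, from 4.83–5.97 to 7.65–9.9 CPM (log2 fold change 0.78 ± 0.10, adjusted p = 0.00118). Slc6a8, the creatine transporter, rose from 55.3–60.5 to 72.9–89.8 CPM (log2 fold change 0.45 ± 0.08, adjusted p = 0.00673). All 5 calls held and none of these genes showed overlap.

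Pcca, a subunit of propionyl-CoA carboxylase in the breakdown of branched-chain amino acids, fell from 27.05–32.4 to 19.4–22.7 CPM (log2 fold change -0.48 ± 0.08, adjusted p = 0.00673), while Bdh1, a ketone body enzyme known to rise in failing heart, stood at 16.4, 24.4, 9.31 and 13.7 CPM in saline and 46.3, 29.7, 24.6 and 31.2 CPM after 11 days (adjusted p = 0.0278, 0.0531 to 0.0871 without 1 of saline A, C, D, 11-day A, B). Igfbp5, which binds insulin-like growth factors, rose from 41.98–51.3 to 60.8–72.6 CPM (log2 fold change 0.59 ± 0.08, adjusted p = 0.00174). Nfatc2, a transcription factor downstream of calcineurin, fell from 9.06–14.2 to 5.47–7.39 CPM (log2 fold change -0.83 ± 0.14, adjusted p = 0.00604). Gpnmb, a glycoprotein of lipid-laden macrophages, rose from 0.401–0.729 to 0.812–1.73 CPM, and Kit, the receptor of mast cells and progenitors, fell from 1.71–3.69 to 0.94–1.57 CPM, and both held.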

How the data were processed

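Total RNA libraries (TruSeq) of mouse heart were trimmed with cutadapt 4.1, aligned to GRCm38.p6 with HISAT2 2.2.1 and quantified with RSEM 1.3.3 by the authors, per the labels and methods. The deposited tables hold expected counts, effective lengths and FPKM per gene, and expected counts and the percent of the gene per isoform, 1 library each; replicates were not pooled, and the authors left out 1 further 8-day replicate. The strand setting is stated in none of the sources used here. The deposited FPKM values entered no test, and the deposited isoform percent is the share plotted and printed.

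Libraries were grouped by their treatment labels. After rounding, genes whose expected counts summed to 10 or more across the 15 libraries were tested in R 4.3.3 with edgeR 4.0.16 (quasi-likelihood test, TMM scaling, Benjamini-Hochberg adjustment, threshold 0.05) on the libraries of the 2 groups compared, unpaired. CPM used TMM-scaled library sizes. Log2 fold changes are given ± SE. Isoforms with at least 10 counts in 4 libraries and 5 percent of the gene in either group's mean were tested with edgeR's diffSpliceDGE. DESeq2 1.42.0 and limma 3.58.1 served as alternatives, beside other scalings, filters and each library left out in turn. Gene types came from GENCODE M21 (55141 of 55401 identifiers matched) and promoters from RefSeq. The scripts were tested on simulated data. Totals of 28889500 to 117777005 counts in the 8 libraries limit precision most for genes under 1 CPM.

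The members and lists were chosen with earlier results of these data known. Genes named come from the 15 highest and 15 lowest called changes whose higher group averaged 1 CPM or more and whose groups lay apart, up to 8 members of each list by smallest p (every member of lists of at most 15), the 5 highest and 5 lowest lncRNAs, up to 5 each way in each direct test, the 10 leading isoform genes, and further list members chosen after their values were seen. Values of some genes are not reported here.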

Additional observations from a re-analysis of the deposited data

Results flagged for a closer look

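In 21 cases the highest or lowest of the 4 CPM values of a named gene lay apart from the other 3 by more than Dixon's 95% critical value allows. Chance alone does this in about 1 in 20 groups. Both groups of every named gene were examined, so chance alone would give about as many cases. Library saline B lay above the rest of its group for Col1a1 at 56.4 CPM (next value 37.1 CPM), Hcn2 at 7.72 CPM (next value 5.71 CPM), Postn at 26.2 CPM (next value 14.9 CPM), Itgax at 0.641 CPM (next value 0.351 CPM), H2-DMa at 2.098 CPM (next value 1.54 CPM), Egr1 at 8.74 CPM (next value 2.83 CPM), Per2 at 30.8 CPM (next value 20.2 CPM) and H2-Eb1 at 17.2 CPM (next value 12.1 CPM). Library saline C lay above the rest of its group for Adrb1 at 7.68 CPM (next value 6.15 CPM). Library saline C lay below the rest of its group for Cfb at 0.41 CPM (next value 0.535 CPM) and Gm49891 at 2.41 CPM (next value 3.31 CPM). Library saline D lay above the rest of its group for Epb41l4aos at 0.958 CPM (next value 0.554 CPM). Library 11-day A lay above the rest of its group for Stum at 5.07 CPM (next value 4.25 CPM). Library 11-day A lay below the rest of its group for Per3 at 26.04 CPM (next value 27.4 CPM). Library 11-day B lay above the rest of its group for Hopx at 52.9 CPM (next value 46.8 CPM). Library 11-day C lay above the rest of its group for Rabep1 at 44.8 CPM (next value 41.4 CPM) and Postn at 121 CPM (next value 25.9 CPM). Library 11-day C lay below the rest of its group for Tubb4b at 24.6 CPM (next value 32.4 CPM). Library 11-day D lay above the rest of its group for Ppargc1b at 17.9 CPM (next value 12.6 CPM), Adrb1 at 6.49 CPM (next value 5.04 CPM) and Hba-a1 at 38.8 CPM (next value 16.1 CPM).

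Some transcripts differed between durations of isoproterenol by direct tests (edgeR's quasi-likelihood test, adjusted p in parentheses). For Per1, a clock gene, sampling hour and duration cannot be told apart. Genes higher after 11 than after 4 days were Kcnv2 with a log2 fold change of 1.53 (0.00224), Gm10635 with a log2 fold change of 1.52 (0.00198), Tbc1d10c with a log2 fold change of 1.23 (0.0017), Stum with a log2 fold change of 1.19 (0.000501) and Mmp3 with a log2 fold change of 1.18 (0.0121). Genes lower after 11 than after 4 days were Gm10359 with a log2 fold change of -14.09 (0.00419), Gm12671 with a log2 fold change of -14.09 (0.00419), Top2a with a log2 fold change of -4.04 (0.000179), Mki67 with a log2 fold change of -3.95 (0.000137) and Prc1 with a log2 fold change of -3.46 (0.000285). Genes higher after 11 than after 8 days were Cacybp with a log2 fold change of 0.69 (0.0394), Tuba4a with a log2 fold change of 0.66 (0.0427) and Epha4 with a log2 fold change of 0.60 (0.0382). Genes lower after 11 than after 8 days were Mki67 with a log2 fold change of -2.26 (0.00465), Top2a with a log2 fold change of -2.08 (0.0232), Prc1 with a log2 fold change of -1.77 (0.0427), Papln with a log2 fold change of -0.87 (0.0387) and Per1 with a log2 fold change of -0.83 (0.0427). The values of Gm10359 and Gm12671 rest on fits with 0 counts in every 11-day library and are no measure of size.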

How the results depend on the processing

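Against saline, DESeq2 called 755 genes higher and 880 lower where edgeR called 483 and 523, scaling by total counts alone 220 lower, and RSEM's effective lengths as offsets 288 higher. Other scalings, filters and fits kept both counts within 1.5 times, and leaving out 1 library gave 231 to 675 higher and 267 to 747 lower. Against 4 days, scaling by total counts alone gave 316 higher where TMM gave 1006, and leaving out 1 library 444 to 1661 higher and 993 to 2252 lower. Against 8 days, where 16 were higher and 21 lower, scaling by total counts alone gave 32 and 50, DESeq2 size factors 32 lower, no filter on low counts 162 and 165, filterByExpr 1 and 3, DESeq2 188 and 124, and leaving out 1 library 0 to 46 and 3 to 68. Of 32 isoform calls, a 10 percent minimum left 21, limma's diffSplice gave 255, a minimum of 10 counts in all 8 libraries, chosen after seeing the data, 42, and leaving out 1 library 3 to 67. The causes were not tested.

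Deviations of saline and 11-day libraries with the same letter correlated at 0.039, -0.076, 0.084 and -0.122 for A to D. Pairs with different letters ranged from -0.179 to 0.203. These few pairs cannot show whether a letter marks a shared day or batch, and the 4- and 8-day libraries were not examined in this way. With the letter as a replicate block, 507 genes were higher and 601 lower than in saline, 918 and 1696 than at 4 days, 82 and 128 than at 8 days, and 21 changed in isoforms.

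No named gene changed direction past the threshold under any alternative. The 216 named genes with a value include genes not called in the main test, which had no call to lose. Among the 216, the number that lost their call was 31 with effective lengths, 29 on scaling by total counts alone, 28 with robust dispersions, 20 with all 15 libraries in one fit, 11 with limma voom, 6 with DESeq2 and 8 to 38 without 1 library. Calls near the threshold and genes under 1 CPM are limited by depth and by 4 libraries a group.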
